A study of Homo sapiens with 46 samples.

Results

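Translational efficiency, the footprints of ribosomes on a transcript relative to its RNA, was taken for each transcript of human HEK293 Flp-In T-REx cells after control siRNA. HEK293 is a human embryonic kidney cell line, and Flp-In T-REx is a derivative of it made for inducible expression of a gene from a fixed site. The libraries were chosen by their labels: 2 of single-ribosome (monosome) footprints and 2 of RNA-seq, which are 4 of the 46 libraries of the series. The labels name these cells only as the knockdown control. Per the labels' protocols, siRNA was given at 75 nM for 72 h and again at 30 nM for 24 h. Tetracycline is described only for the lines that make tagged eRF1, and the sequence of the control siRNA is not given in the sources used here. For comparison, the same 2 assays were read in cells given siRNA against ASCC3, against 4EHP or against both, with 4 libraries each. The labels do not say whether replicates were separate cultures, so the p-values below speak only of the variation among the libraries at hand, and that variation may be technical.

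A ribosome protects a short stretch of the mRNA it sits on from nuclease, and the protected pieces can be sequenced as footprints. The number of footprints on a coding sequence reflects its length, how much of the mRNA is present and how densely it is loaded with ribosomes. Footprints are divided by RNA-seq reads to give the density of that load. A longer coding sequence gathers more of both kinds of read, so its length is divided out as far as both scale with it. The density depends on how often ribosomes start and how fast they move. For RNA-seq, a kit for total RNA that keeps the strand was used, and the RNA so counted need not be in the course of translation. For footprints, the labels' protocol names RNase I digestion, pelleting of ribosomes and rRNA depletion. The ratio is relative: it says how the ribosomes of the cell are shared out among its RNAs, not how many proteins are made from each.

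The files list 100283 transcripts with a coding length in both assays. Isoforms that share reads were collapsed to the member with the most counts as far as the counts allowed, which left 54365 transcripts, of which 49109 had a count in at least 1 of the 4 control libraries and 31757 passed the filter on low counts. Isoforms of low count were joined only where their counts were the same in all 46 libraries, and many that share reads remain apart: 401 tested transcripts had the same 4 control counts as a nearby one. Several tested transcripts may thus belong to the same gene, so the numbers below are not numbers of genes. The files do not pair transcript IDs with gene names, and kidney or other cell type markers, as well as the siRNA targets, were not analysed here. Counts summed over all listed transcripts were 20183334 and 18268812 in the monosome libraries and 45434984 and 56402314 in the RNA-seq libraries. Levels are given as CPM, counts scaled to a library sum of 1e+06. In that sum, isoforms that share reads are each counted. Over collapsed transcripts alone, the sums were 6688750 and 6064898 for monosomes and 15404236 and 19103454 for RNA-seq. CPM levels and limits here are therefore lower than on a scale of collapsed transcripts. Between 10 and 100 CPM, replicates differed with an SD of 0.10 in log2 CPM for monosomes and 0.07 for RNA-seq. Both pairs differed beyond sampling noise, at a chi-square of 1.36 per degree of freedom for monosomes and 1.97 for RNA-seq, and none was taken for a library deposited more than once.

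Ribosomes were spread unevenly over the RNAs of control cells. Of 31757 transcripts tested, 6580 (20.7%) had a higher share of monosome footprints than of RNA by at least 2-fold, and 6501 (20.5%) had a lower share by at least 2-fold (edgeR quasi-likelihood test of monosome over RNA-seq, Benjamini-Hochberg adjusted p under 0.05). The other 18676 lay within 2-fold or did not pass the test. The median log2 ratio was -0.01. The distribution was wide, with the 10th percentile at -1.63 and the 90th at 1.92 on the log2 scale. The plot of monosome against RNA-seq levels shows that part of this width lies among transcripts with few counts. Among the 6865 transcripts with a mean of at least 10 CPM over the 4 libraries, the 10th and 90th percentiles were -1.44 and 1.12, a span of 5.87-fold, and 816 (11.9%) were higher and 1229 (17.9%) lower. Among the 445 with at least 100 CPM the span was 5.17-fold, and 69 (15.5%) were higher and 62 (13.9%) lower. The median standard error of a log2 ratio was 0.20 over all tested transcripts that had counts in both assays and 0.08 at 10 CPM or more, so in the better-counted set most of the spread between transcripts exceeded the error of a single ratio.

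**Figure D1:**
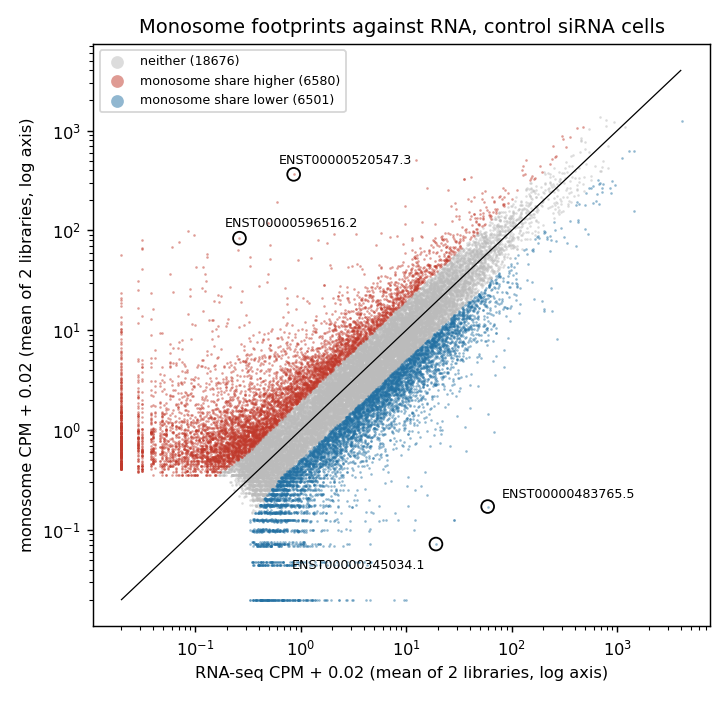
Monosome against RNA-seq levels in control siRNA cells, each axis a mean of 2 libraries in CPM plus 0.02 on a log axis, 1 point per tested transcript. The line marks equal shares, and points at the left and lower edges have 0 counts. The 6580 transcripts called higher lie above it and the 6501 called lower lie below it, and circles mark the 4 transcripts named in the text.

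The transcripts called higher carried 20.8% and 20.9% of the monosome counts on tested transcripts in the 2 libraries, against 6.43% and 6.48% of the RNA-seq counts. The transcripts called lower carried 9.20% and 9.06% of the monosome counts, against 27.4% and 27.3% of the RNA-seq counts. The direction of both follows from how they were chosen, and the values show how much of each library they make up. The filter bears on these numbers, as a transcript that passed only through the assay in which it was high is more likely to be called. It works on a level in CPM reached in at least 2 libraries. Set at 10 counts instead, 1766 transcripts reached that number in both monosome libraries but not in both RNA-seq libraries, and 5406 did the reverse. The RNA-seq libraries were deeper, so 10 counts there are a lower level. The numbers 1766 and 5406 thus do not show through which assay a transcript passed. Of the higher calls, 2641 had fewer than 10 counts in an RNA-seq library, and of the lower calls, 2532 had fewer than 10 in a monosome library. Of the calls, 3863 higher and 3969 lower ones had at least 10 counts in all 4 libraries.

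Short coding sequences took a larger share of footprints than of RNA, and long ones a smaller share. The median log2 ratio stood at 2.66 for the 1719 transcripts with up to 50 codons, 0.77 for the 5063 with over 50 to 100, 0.16 for the 4966 with over 100 to 150, -0.04 for the 8189 with over 150 to 300, -0.23 for the 6484 with over 300 to 600, -0.58 for the 3951 with over 600 to 1200, -0.89 for the 1166 with over 1200 and under 2500 and -1.32 for the 219 with 2500 codons or more. Each class thus lay below the next shorter one. In the class of 2500 codons or more, 135 transcripts were called lower and 15 higher, or 61.6% and 6.85%, against 20.5% and 20.7% of all tested. In the class of up to 50 codons, 114 were called lower and 1245 higher, or 6.63% and 72.4%. The classes in between passed from one pattern to the other. At over 100 to 150 codons, 763 (15.4%) were called lower and 1023 (20.6%) higher, the latter close to the share of all tested. At over 600 to 1200 codons, 1364 (34.5%) were called lower and 250 (6.33%) higher. The interquartile range was -0.60 to 0.86 at over 100 to 150 codons and -1.29 to 0.06 at over 600 to 1200 codons, so even these classes, which are not neighbours, overlapped. At up to 50 codons it was 0.90 to 4.78, against -0.16 to 1.77 at over 50 to 100. The median of the shortest class thus lay above the third quartile of the next. Transcripts called higher had a median of 95 codons and those called lower one of 350, against 204 for all tested.

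**Figure D2:**
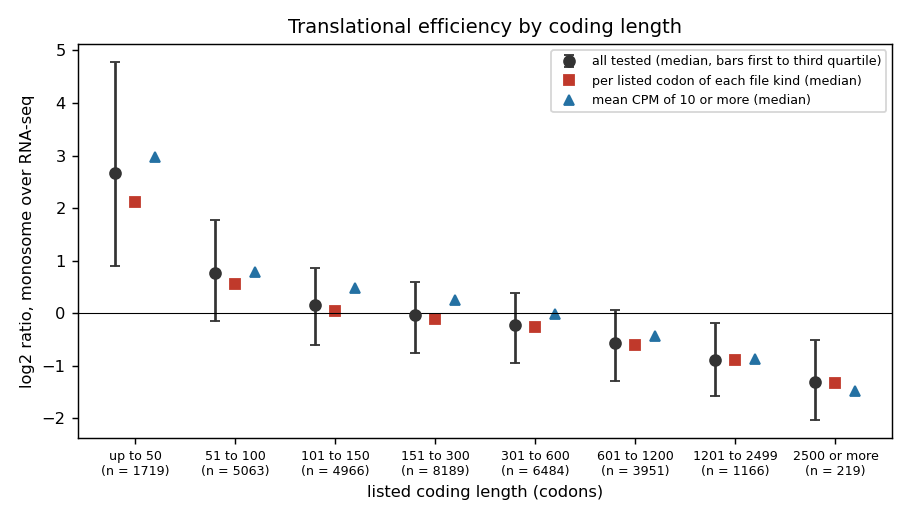
Log2 ratio of monosome over RNA-seq by listed coding length. Black points and bars give the median and interquartile range of all tested transcripts, red squares the median after each count is divided by the length listed for its own assay, and blue triangles the median of transcripts with a mean of at least 10 CPM. All 3 medians decline from the shortest to the longest class, the black points from 2.66 to -1.32.

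The decline was also present among well-counted transcripts. With a mean of at least 10 CPM, the class medians were 2.97 for 33 transcripts of up to 50 codons, 0.78 for 325 of over 50 to 100, 0.48 for 623 of over 100 to 150, 0.26 for 1665 of over 150 to 300, -0.02 for 1970 of over 300 to 600, -0.44 for 1541 of over 600 to 1200, -0.88 for 576 of over 1200 and under 2500 and -1.48 for 132 of 2500 codons or more. In the longest of these classes 91 (68.9%) were called lower and 3 (2.27%) higher, and in the shortest 0 were called lower and 24 (72.7%) higher, against 17.9% lower and 11.9% higher of all 6865. Across these 6865 transcripts, the ratio and the coding length had a Spearman correlation of -0.47. Over the 4219 of them with more than 300 codons it was -0.35. These are correlations across transcripts of the same 4 libraries and describe them only. The difference between the 2 monosome libraries was nearly unrelated to length (Spearman -0.01 over the 6865), and that between the RNA-seq libraries was weakly related (0.07).

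The lengths listed in the RNA-seq files are 10 codons shorter than those in the footprint files, and the shortest entries had no RNA-seq counts. The 380 listed transcripts of up to 10 codons held 2304 monosome counts and 0 RNA-seq counts over the control libraries, and all 22 of them that passed the filter had 0 RNA-seq counts. Whether RNA-seq reads were counted over a shorter window in longer coding sequences as well is not given in the sources used here. Dividing each count by the length listed for its own assay lowered the median of the class of up to 50 codons to 2.12 and that of over 50 to 100 codons to 0.56, while the class of 2500 codons or more stood at -1.33. For the ratio per listed codon, the Spearman correlation with length was -0.43 at 10 CPM or more. For the ratio without division by length, the median of the longest class was -0.78 when no count filter was used, and that of the shortest class was 1.80 or 1.85 when replicate 1 or replicate 2 of the monosome libraries was left out. Of the 1719 transcripts in the shortest class, 688 had at least 10 counts in both monosome libraries but not in both RNA-seq libraries, and 245 the reverse. The filter works on CPM, so others with fewer monosome counts also passed through that assay alone. The median of this class thus rests in large part on transcripts with few or no RNA-seq reads.

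Shares of all counts showed the same order with little spread between replicates. Coding sequences of up to 50 codons took 1.12% ± 0.003 of monosome counts and 0.343% ± 0.008 of RNA-seq counts (SD, n = 2 libraries each). Those of over 50 to 100 codons took 6.78% ± 0.02 of monosome counts and 4.53% ± 0.04 of RNA-seq counts. The classes of over 150 to 300 and over 300 to 600 codons, which together hold most counts, were close to even, with 27.5% ± 0.02 of monosome and 26.7% ± 0.09 of RNA-seq counts in the first and 27.6% ± 0.07 and 27.2% ± 0.05 in the second. Above 600 codons, the RNA-seq share was the larger: monosomes held 16.9% and 17.1% in the 2 libraries and RNA-seq 19.9% ± 0.10 at over 600 to 1200 codons, monosomes 4.84% ± 0.05 and RNA-seq 7.61% ± 0.04 at over 1200 and under 2500 codons, and monosomes 1.11% ± 0.03 and RNA-seq 2.18% ± 0.003 at 2500 codons or more. In every class the 2 monosome libraries lay on the same side of both RNA-seq libraries, as the bars of single libraries show. With 2 libraries a group, no exact test of such a share can reach the threshold.

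**Figure D3:**
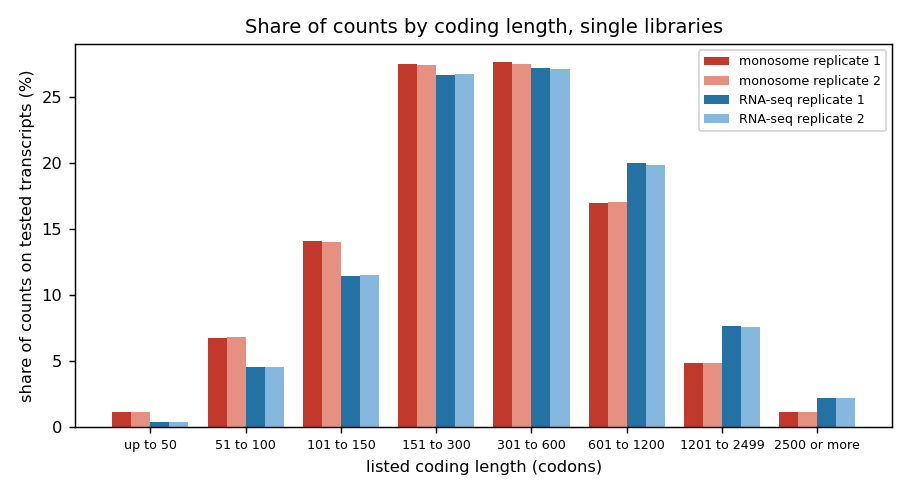
Share of the counts on tested transcripts, in percent, that falls in each class of listed coding length, with 1 bar per control siRNA library. Monosome bars stand above RNA-seq bars up to 600 codons and below them above 600 codons, with 1.11% on average against 2.18% in the longest class.

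Set per length, footprint and RNA levels followed different courses. Each level was divided by the length listed for its own assay, which is 10 codons shorter for RNA-seq and matters most in the shortest classes. The median monosome level per 1000 codons was 23.1 CPM for coding sequences of up to 50 codons, 14.1 at over 50 to 100, 12.5 at over 100 to 150, 12.98 at over 150 to 300, 9.51 at over 300 to 600, 5.95 at over 600 to 1200, 3.90 at over 1200 and under 2500 and 2.04 at 2500 or more. The median RNA-seq level per 1000 codons was 5.97 CPM in the shortest class, 9.83 at over 50 to 100, 12.9 at over 100 to 150, 15.1 at over 150 to 300, 13.003 at over 300 to 600, 10.6 at over 600 to 1200, 7.92 at over 1200 and under 2500 and 6.39 in the longest. Footprint density was therefore highest in the shortest and lowest in the longest class, whereas RNA density peaked at over 150 to 300 codons and was low at both ends. The filter asks for a minimum CPM per transcript, which a long coding sequence reaches at a lower level per codon. The levels in different classes thus start from different minima.

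The transcripts at the ends of the distribution are shown as examples. ENST00000520547.3 (155 codons) had the highest ratio among called transcripts with at least 10 CPM in both monosome libraries and at least 10 counts in both RNA-seq libraries. It had 362 and 367 CPM in the monosome libraries, from 7299 and 6696 counts, against 0.770 and 0.904 CPM in the RNA-seq libraries, from 35 and 51 counts. The log2 ratio was 8.75 (SE 0.08, edgeR adjusted p = 9.84e-111). ENST00000596516.2 (303 codons), which stands for 2 listed transcripts, had 79.8 and 87.1 CPM in the monosome libraries, against 0.308 and 0.177 CPM in RNA-seq, a log2 ratio of 8.44 (SE 0.12, edgeR adjusted p = 6.54e-91). In both cases the assays did not overlap. The monosome replicates were close together, while the RNA-seq levels rest on few counts, 14 and 10 for the second transcript.

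At the other end, ENST00000483765.5 (60 codons) had 5 and 1 counts in the monosome libraries, against 2711 and 3307 counts in RNA-seq, or 59.7 and 58.6 CPM. Its log2 ratio was -8.53 (SE 0.17, edgeR adjusted p = 3.75e-76), and the ratio of summed counts, scaled by library, was 0.00264 (95% exact counting interval 0.000969 to 0.00575). The log2 ratio was -9.997 without monosome replicate 1 and -7.88 without monosome replicate 2. It is a short coding sequence and runs against the trend of its length class. ENST00000345034.1 (618 codons) had 1 count in each monosome library, against 855 and 1095 counts in RNA-seq, or 18.8 and 19.4 CPM. Its ratio was 0.00272 (95% exact counting interval 0.000329 to 0.00983), and the log2 ratio was -8.43 (SE 0.27, edgeR adjusted p = 1.26e-55). The intervals cover counting error only. The counts do not show how reads were divided between a transcript and any near-identical copy at another locus, so ratios this far from 1 are uncertain where such copies exist.

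The same 4 transcripts kept to their side in the 3 other conditions with both assays. ENST00000520547.3 had 351 and 351 CPM in monosomes of ASCC3 siRNA cells, 328 and 324 CPM with 4EHP siRNA, and 318 and 319 CPM with both, and its RNA-seq level was between 0.540 and 1.47 CPM in those 6 libraries. Its footprints were also found in the monosome inputs of the other arm, at 395 and 435 CPM with SBP-eRF1-AAQ, 340 and 337 CPM with SBP-eRF1 wild type and 297 CPM in naive cells. ENST00000483765.5 had at most 2 counts in any of the 6 monosome libraries of the ASCC3, 4EHP and combined siRNA cells, and 45.0 to 60.1 CPM in their RNA-seq libraries. ENST00000345034.1 had 1 to 6 counts in those monosome libraries, or 0.198 to 0.297 CPM, against 0.0495 and 0.0547 CPM in control. Its RNA-seq level there was 16.1 to 27.8 CPM. The ratio of this transcript was thus less extreme there than in control, the condition on which it was chosen. In the monosome inputs of the other arm it had 0.352 to 1.07 CPM, from 1 to 4 counts. The plot of the 4 transcripts shows no library in which the order of the assays was the other way round.

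**Figure D4:**
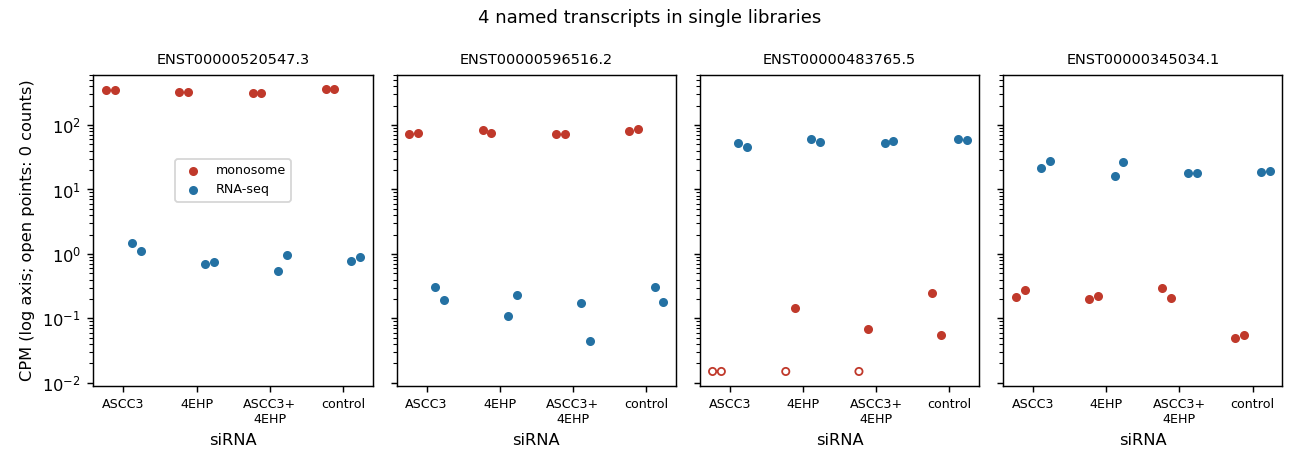
Levels of the 4 named transcripts in single libraries, in CPM on a log axis, with monosome libraries in red and RNA-seq libraries in blue for each siRNA. Open points at the bottom stand for libraries with 0 counts. Monosome points lie above RNA-seq points in all 4 conditions for ENST00000520547.3 and ENST00000596516.2 and below them for ENST00000483765.5 and ENST00000345034.1.

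Such wide gaps were rare. Of 6362 transcripts at 10 or more monosome CPM, 122 had an RNA-seq level more than 10-fold lower, with a median of 114 codons. Among them, 11 had 0 RNA-seq counts in control cells. They had 16 to 294 codons, and against a floor of 3 RNA-seq counts over both libraries their footprint level was at least 348-fold higher for the lowest and at least 1910-fold higher for the highest. All 11 had footprints in each of the 6 monosome libraries of the other conditions, and 8 had 0 counts in their 6 RNA-seq libraries as well. Of 7030 transcripts at 10 or more RNA-seq CPM, 79 had a monosome level more than 10-fold lower, with a median of 781 codons, and 35 were below 1 monosome CPM. None of the 7030 had 0 monosome counts in both libraries. At this depth, each RNA of that level had at least 1 footprint count.

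The transcripts most abundant in RNA-seq and those most abundant in footprints were only in part the same. The 100 transcripts with the most RNA-seq reads, all above 305 CPM, had a median log2 ratio of -0.70, with 35 called lower and 5 called higher, where 13.9% were lower and 15.5% higher of the 445 transcripts at 100 CPM or more. The 100 transcripts with the most footprints had a median of 0.47, with 9 called lower and 28 called higher. The lists had 56 transcripts in common. Each list was chosen on a part of the ratio itself, so that a lower ratio in the first and a higher one in the second is built in, and the values describe its size. Counts were concentrated to a like degree in both assays: the top 100 held 15.37% and 15.03% of monosome counts and 16.96% and 17.18% of RNA-seq counts, and the top 1000 held 45.8% and 45.6% of monosome counts and 44.0% and 44.3% of RNA-seq counts. Monosome and RNA-seq levels had a Spearman correlation of 0.76 over 21646 transcripts with a mean of at least 1 CPM.

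When these 21646 transcripts were ordered by their mean level over both assays, which favours neither, the ratio showed no steady course. The median log2 ratio was -0.02 in the lowest decile, at 1 to 1.43 CPM, -0.19 in the decile at 7.41 to 10.7 CPM, and 0.11 in the highest, at 29.5 CPM and above. The width of the interquartile range was 1.74 in the lowest decile and 1.12 in the highest. In the highest decile, 283 transcripts (13.1%) were called higher and 299 (13.8%) lower, against 15.5% higher and 20.1% lower of all 21646.

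Whether these ratios were seen again in other cells was read from the ASCC3, 4EHP and combined siRNA libraries, which share no sample with the control. Ratios in this paragraph are log2 values of mean CPM plus 0.5, with no test. Of the 816 transcripts called higher at 10 CPM or more in control cells, 690 were past 2-fold with ASCC3 siRNA, 663 with 4EHP siRNA and 721 with both, against 789 in control on this scale. Those above 0 numbered 816, 814 and 816. Of the 1229 called lower, 1150, 1121 and 1138 were past 2-fold in the same order, against 1200 in control, and all 1229 were below 0 in each condition. The transcripts were chosen on the control libraries, so somewhat lower numbers elsewhere carry no weight as a difference. Over the 6865 transcripts, the ratios of each condition and of the control had Spearman correlations of 0.96, 0.97 and 0.98, across transcripts.

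The decline with coding length was present in each condition. At over 50 to 100 codons the median was 0.34 with ASCC3 siRNA, 0.44 with 4EHP siRNA, 0.44 with both and 0.49 in control. At over 600 to 1200 codons it was -0.59, -0.53, -0.50 and -0.49 in the same order. At 2500 codons or more it was -1.41, -1.38, -1.19 and -1.13. The medians over all tested transcripts were -0.09 with ASCC3 siRNA, -0.04 with 4EHP siRNA, -0.03 with both and -0.01 in control, and differences between conditions were not tested. The 0.5 CPM added on this scale pulls low levels together, so that the class of up to 50 codons stood at 0.98 in control, against 2.66 in the count model.

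**Figure D5:**
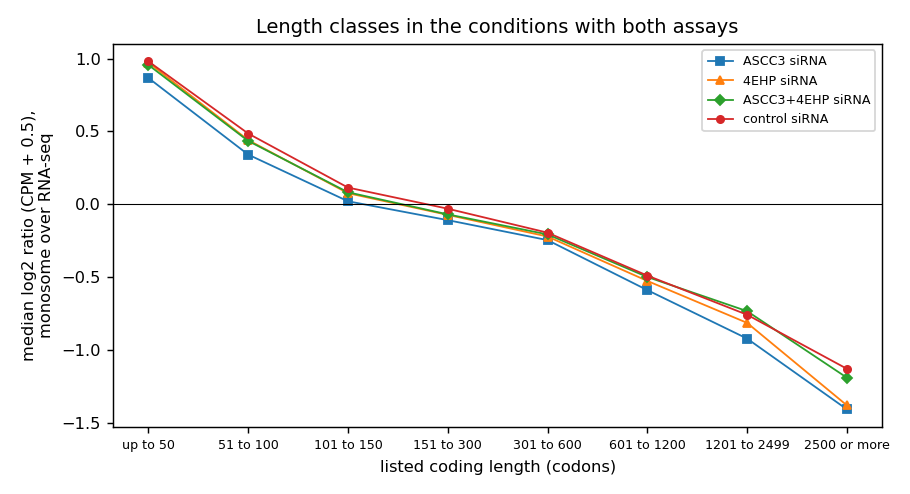
Median log2 ratio of monosome over RNA-seq (CPM plus 0.5) by class of listed coding length, in cells given siRNA against ASCC3, 4EHP or both and in control siRNA cells, with 2 libraries per assay and condition. All 4 lines decline from the shortest class to the longest, where the medians are -1.41, -1.38, -1.19 and -1.13.

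Disome footprints, from pairs of ribosomes stacked against one another, were set against the same control RNA-seq libraries. Because the RNA-seq libraries are shared with the monosome ratio, the 2 ratios are given side by side and are not independent. Among transcripts with at least 10 CPM, those called higher in monosomes had a median log2 ratio of disome over RNA of 0.99 and of monosome over RNA of 1.45. Those called lower had medians of -2.30 for disomes and -1.46 for monosomes, and the 4820 called neither way had -0.41 and 0.04. Over all 6865 the medians were -0.53 and -0.02. These ratios use mean CPM plus 0.5, and the disome libraries were shallower, at 4715435 and 2493885 counts. The transcripts called higher held 14.7% and 14.2% of disome counts and 16.1% and 16.1% of monosome counts, against 5.17% and 5.20% of RNA-seq counts. Those called lower held 8.32% and 8.40% of disome counts and 7.29% and 7.16% of monosome counts, against 21.4% and 21.4% of RNA-seq counts. For this set, the lower median of disomes thus stood beside a larger share of counts than in monosomes.

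How isoforms were joined bears on which transcripts these are. Within the 8339 collapsed sets that had at least 2 transcripts with 100 counts or more per assay, the log2 ratios of the members spanned a median of 0.16, and in 418 sets (5.01%) they spanned 1 or more. At 10 CPM or more, where 11.9% of all were higher and 17.9% lower, the 2003 transcripts that stood for themselves alone had 370 higher (18.5%) and 283 lower (14.1%) calls, with a median log2 ratio of 0.14 and a median of 272 codons. The 3801 that stood for 2 to 5 transcripts had 363 higher (9.55%) and 729 lower (19.2%) calls, with medians of -0.11 and 454 codons. The 1061 that stood for more than 5 had 83 higher (7.82%) and 217 lower (20.5%) calls, with medians of -0.09 and 452 codons. The differences between these sets were not tested. Transcripts with fewer than 500 counts over the whole series were the ones joined on identical counts alone. The 7804 such transcripts tested had 2708 higher (34.7%) and 1575 lower (20.2%) calls, against 20.7% and 20.5% of all tested. Of the 23953 others, 16.2% were higher and 20.6% lower in the main fit. A fit of these alone gave 3872 higher and 4927 lower calls. The listed length is that of the representative, and the coding sequence in use may differ.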

How the data were processed

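Whole-number counts per transcript were used as the authors deposited them, 1 file per library, in which each line names a transcript by its Ensembl ID and gives its length and its count. The build hg38, UMI-tools 1.1.1 and STAR 2.7.0a are listed, per the submitters' processing notes, with no order of use. Which program counted the reads, on which annotation, and where UMIs were collapsed is not given in the sources used here. The deposited length was read as codons. RNA-seq files also list 126981 transcripts without a length, all at 0 counts, which were left out. Groups and replicate numbers come from the labels.

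Isoforms were joined within 40 lines of the file where their differences between replicates, over 20 replicate pairs, correlated above 0.7 after removal of 2 components. Only the 60189 transcripts that had 500 or more counts in total entered this step, and others were joined only on identical counts in all libraries, within blocks of 40 lines. Monosome and RNA-seq counts were compared with edgeR 4.0.16 in R 4.3.3 (robust quasi-likelihood F test, expression filter at a minimum count of 10, no replicate block). Library sizes were set to the sum of counts over all listed transcripts. The filter applies its minimum as a level in CPM. Fewer than 10 counts thus suffice in the smaller monosome libraries, and more than 10 are needed in the larger RNA-seq libraries. Calls need a Benjamini-Hochberg adjusted p under 0.05 over all 31757 transcripts tested and a log2 ratio of at least 1 or at most -1. The fit was tested on simulated data. Named transcripts are the 2 highest and 2 lowest called ratios with at least 10 CPM in each monosome (for the highest, also 10 counts in each RNA-seq) or each RNA-seq library. Gene lists had been drawn up, but no symbol could be tied to a transcript ID, so none was used. The libraries, length classes and rules were chosen with earlier results of these data known. Alternatives used DESeq2 1.42.0, other scalings, filters and representatives, a replicate block and the omission of each library.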

Additional observations from a re-analysis of the deposited data

How the results depend on the processing

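The numbers of higher and lower calls, 6580 and 6501, moved by more than 1.5 times in few settings. Without collapse of isoforms, 11917 transcripts were higher and 14004 lower of 68710 tested. In 2 settings chosen after seeing the data, only transcripts with 500 or more counts gave 3872 higher and 4927 lower calls of 23953 and a median of -0.0771, and joining neighbours with identical control counts gave 6433 and 6412 of 31356. With an adjusted p under 0.05 alone, 11190 were higher and 11185 lower. A test against a 2-fold minimum (edgeR glmTreat) left 4627 higher and 4140 lower. Leaving out each library in turn gave 5633 to 6283 higher and 5962 to 6335 lower calls. DESeq2 gave 5909 higher and 5398 lower with its own size factors, and 5746 and 5554 with the column sums. The median log2 ratio of -0.01 became 0.0221 with sums over collapsed transcripts, 0.1139 without the count filter, 0.0146 with DESeq2's size factors, 0.0177 with the spread shared over 4 conditions, 0.0015 with the longest isoform as representative, -0.0467 without collapse, -0.0945 per listed codon and -0.0684 to 0.0151 without single libraries. TMM scaling gave -0.008. Of 128 class medians recomputed, 127 kept their sign. The exception was that of over 150 to 300 codons without collapse, at 0.05 against -0.04. Without a monosome library, the class of up to 50 codons had a median of 1.80 or 1.85, and without the count filter that of 2500 codons or more was -0.78. The size of the edgeR adjusted p-values of the 4 named transcripts depended on the fit. With the spread shared over 4 conditions, that of ENST00000520547.3 was 5.23e-29, against 9.84e-111 in the main fit. That of ENST00000345034.1 was 6.99e-14, against 1.26e-55. All 64 recomputed calls of the 4 named transcripts were kept. This carries little weight, as they were chosen for the most extreme called ratios, under set minimum levels, in the same counts.

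Replicate numbers are shared by the assays, but the labels do not say that they mark a common culture. The differences between replicates of the 2 assays were uncorrelated across transcripts (-0.01). With the replicate number as a block, 6532 transcripts were higher and 6460 lower. Depth limits the low end: 5406 tested transcripts had fewer than 10 counts in a monosome library and 10 or more in both RNA-seq libraries, and their ratios rest on few footprints.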
